A study of Mus musculus with 24 samples.

Results

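The Notch pathway was described here through 9 genes in the jaws of mouse embryos that lack the TGF-beta receptor Alk5 in the neural crest. They were the receptors Notch1, Notch2 and Notch3, the ligands Jag1 and Dll1, the target genes Hes1 and Hey1, the Numb-like adaptor Numbl and nicastrin (Ncstn), a subunit of gamma-secretase. The members were 9 of the 18193 genes that the array's annotation names by 1 symbol, and each gene was represented by its brightest probe set, the one of highest mean on the 24 arrays. Ncstn and Numbl were chosen by their lower log2 level in knockout than in control arrays, so their values between genotypes are given as a description with no test. All 9 genes lay above the filter level (a log2 of 6.07) on all 24 arrays.

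Notch receptors sit in the cell membrane and bind ligands of the Delta and Jagged families on neighbouring cells. Ligand binding leads to cutting of the receptor by gamma-secretase, the protease complex that holds nicastrin, and the freed intracellular part joins the DNA-binding protein Rbpj in the nucleus and switches on genes of the Hes and Hey families. Numb and Numb-like proteins are best known for holding the pathway back. In the developing face Jag1 and Notch signalling are known for a part in craniofacial skeletal patterning and in blood vessels.

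Total RNA came from C57B6 embryos at embryonic day 12.5, from matings of Wnt1cre;Alk5fl/+ with Alk5fl/fl mice. Alk5 is the protein of the gene Tgfbr1, and Wnt1-Cre acts in the neural crest, so epithelium, endothelium and skeletal muscle of the same tissue keep the gene. Mutant embryos were recognised by cleft palate and a calvarial defect, and their littermates served as controls; the sources used here do not give the controls' exact alleles. Each of 4 parts (the proximal and the distal end of each jaw) gave 2 control and 4 knockout arrays, 8 and 16 in all. The labels do not say which samples share an embryo or a pool, so the spread behind each p-value is that between these samples only. In bulk tissue, fewer cells of a type and less RNA per cell cannot be told apart.

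The arrays fell into 3 array sets, each of 8 arrays: controls, knockouts numbered 1 and 2, and knockouts numbered 3 and 4. The hybridisation controls ranged from 10.09 to 11.07 (log2) in controls, from 11.30 to 12.19 in knockouts 1 and 2 and from 9.03 to 9.51 in knockouts 3 and 4. The 3' minus 5' probe set difference for Gapdh and beta-actin (the 3' excess), a measure of RNA quality, was 0.71 to 1.50 in knockouts 1 and 2, against 0.13 to 0.22 in controls and 0.00093 to 0.16 in knockouts 3 and 4. No array set holds both genotypes, so genotype and array set cannot be told apart in any comparison of a knockout set with control. By Xist and Kdm5d, all 8 control arrays were male, and each knockout set held 4 male and 4 female arrays. Of the knockout 1 arrays only the proximal maxilla was female (Xist 13.42), and of the knockout 2 arrays only the proximal maxilla was male (Xist 5.89). The arrays of each of these numbers therefore did not all come from the same embryo. Between the ends of the maxilla, each of these numbers sets a male array against a female one. The 3 probe sets of Tgfbr1 did not settle the genotype: 1420893_a_at ranged from 5.42 to 7.07 in knockouts and from 7.02 to 8.31 in controls, 1420895_at from 12.07 to 12.64 and from 11.98 to 12.69, and 1420894_at was lower than control in knockouts 1 and 2 and higher in knockouts 3 and 4 (means of 5.10 and 7.63 against 7.03). Where these probes lie relative to the deleted part is not given in the sources used here.

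All 5 mandibular marker genes were higher in the arrays labelled mandible, with a summed log2 level of 12.88 to 13.77 in control mandible against 11.33 to 11.85 in control maxilla. A list of 5 maxillary markers, of which 4 were measured, did not separate the jaws: all 4 were higher in control mandible than in control maxilla (median 0.39), with summed levels of 12.75 to 13.39 and 12.22 to 13.40. The arrays labelled proximal and distal in control 2 went against the others. Across 13837 genes, the distal minus proximal difference of control 2 had a Pearson correlation of -0.56 with the mean of the knockouts in the mandible and -0.29 in the maxilla. The same correlation was 0.48 and 0.47 for control 1; each knockout number set against the other 3 gave 0.43 to 0.62 in the mandible and 0.05 to 0.43 in the maxilla. Whether the end labels of control 2 are right cannot be settled from these arrays. They were kept as given, and every control value for an end, and every knockout minus control value for a part, carries that doubt; such values of the members named below are given with and without control 2.

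Ncstn, Numbl and Jag1 are shown by the 250 bases upstream of their RefSeq start sites (GRCm38.p6), because Ncstn and Numbl were lower in both knockout sets and Jag1 was the ligand that differed between knockout sets and between the ends of the knockout mandible. Sequences run 5' to 3' on the gene's strand, and capitals mark the SMAD box CAGAC or its reverse complement GTCTG, the short motif bound by the SMAD proteins downstream of Alk5.
Ncstn chr1:172082750-172082999 (-): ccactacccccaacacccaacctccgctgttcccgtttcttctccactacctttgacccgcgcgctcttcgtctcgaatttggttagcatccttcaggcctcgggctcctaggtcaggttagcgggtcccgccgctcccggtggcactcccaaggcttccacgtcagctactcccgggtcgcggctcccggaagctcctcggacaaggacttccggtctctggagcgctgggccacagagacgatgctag
Numbl chr7:27258511-27258760 (+): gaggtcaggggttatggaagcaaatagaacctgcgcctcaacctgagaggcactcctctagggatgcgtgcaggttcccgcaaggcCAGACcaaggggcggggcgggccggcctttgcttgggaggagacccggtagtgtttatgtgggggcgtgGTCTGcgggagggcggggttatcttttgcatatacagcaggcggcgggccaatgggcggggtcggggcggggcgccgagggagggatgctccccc
Jag1 chr2:137116521-137116770 (-): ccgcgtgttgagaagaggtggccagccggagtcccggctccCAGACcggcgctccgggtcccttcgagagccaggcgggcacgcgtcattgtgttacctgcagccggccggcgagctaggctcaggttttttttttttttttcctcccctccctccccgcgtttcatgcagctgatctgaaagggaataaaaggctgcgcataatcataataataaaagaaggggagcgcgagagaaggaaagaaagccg
Promoter windows were found for 7 of the 9 members, all but the target genes Hes1 and Hey1. CAGAC on either strand was present in 4 of the 7, against 42.19% of 32851 RefSeq promoter windows of the same length. It occurred at 2 places in Numbl, once in Jag1, and nowhere in the Ncstn window. The core TGGGAA of the Rbpj motif, searched on both strands, was in 0 of the 7, against 21.59% of all windows. The target genes Hes1 and Hey1 could not be searched for it. A match describes the letters of the window and is no evidence of binding.

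Among the receptors, Notch1 had array set means within 0.07 of each other. Its log2 level was 10.61 at the lowest, 10.77 at the median and 10.87 at the highest in controls (n = 8), 10.62, 10.77 and 11.05 in knockouts 1 and 2 (n = 8), and 10.55, 10.77 and 10.90 in knockouts 3 and 4 (n = 8). The 3 groups overlapped over most of their range. The knockout minus control difference was 0.03 ± 0.09 (SE of limma on 4 knockout and 2 control means; 95% interval -0.19 to 0.26).

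Notch2 and Notch3 had opposite differences from control in the knockout sets. Notch2 had a low of 10.66, a median of 10.87 and a high of 11.26 in controls, 11.13, 11.18 and 11.27 in knockouts 1 and 2, and 10.40, 10.51 and 10.93 in knockouts 3 and 4. Notch3 had a low of 10.51, a median of 10.59 and a high of 10.87 in controls, 11.02, 11.10 and 11.38 in knockouts 1 and 2, and 10.17, 10.36 and 10.60 in knockouts 3 and 4. For Notch3, knockouts 1 and 2 lay above every other array (12.5% of genes did so against control and 16.3% against knockouts 3 and 4), while knockouts 3 and 4 overlapped the controls. For Notch2, knockouts 1 and 2 lay above all knockouts 3 and 4 and overlapped the controls.

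**Figure D1:**
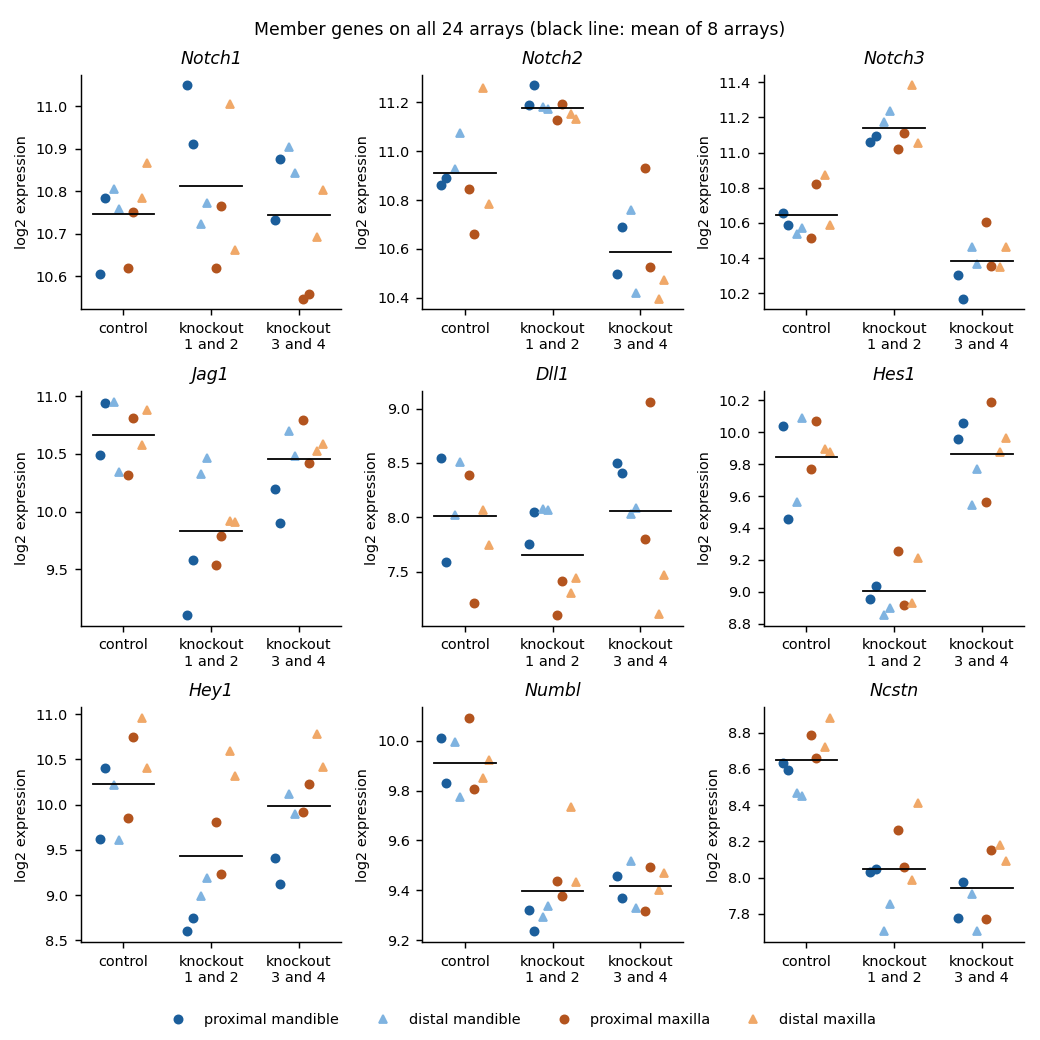
Log2 expression (vertical axis, a separate scale for each gene) of the 9 members on each of the 24 arrays, by array set; colour and symbol give the part and the black line the mean of 8 arrays. Ncstn and Numbl, chosen for a lower level in knockouts, lie below all control arrays in both knockout sets, while Hes1 lies low in knockouts 1 and 2 alone.

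The ligand Jag1, which activates Notch receptors on neighbouring cells, was lower in knockouts 1 and 2. Its low, median and high were 10.32, 10.70 and 10.96 in controls, 9.10, 9.85 and 10.47 in knockouts 1 and 2, and 9.90, 10.51 and 10.80 in knockouts 3 and 4. Only the distal mandible arrays of knockouts 1 and 2 (10.32 and 10.47) reached the control range. The ligand Dll1 spread widely within each set: 7.22 to 8.55 in controls, 7.10 to 8.08 in knockouts 1 and 2, and 7.12 to 9.06 in knockouts 3 and 4. All 3 groups of Dll1 overlapped.

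The target genes Hes1 and Hey1, transcriptional repressors switched on by Notch, both had their lowest levels in knockouts 1 and 2. Hes1 had a low of 9.45, a median of 9.88 and a high of 10.09 in controls, 8.86, 8.94 and 9.26 in knockouts 1 and 2, and 9.54, 9.92 and 10.19 in knockouts 3 and 4. Hes1 in knockouts 1 and 2 lay below every other array (17.9% of genes did so against control and 19.5% against knockouts 3 and 4). Hey1 had a low of 9.61, a median of 10.31 and a high of 10.96 in controls, 8.60, 9.21 and 10.59 in knockouts 1 and 2, and 9.12, 10.02 and 10.78 in knockouts 3 and 4, with overlap between all 3 groups.

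Numbl and Ncstn were lower than control in both knockout sets; they are members because of their lower level in knockouts. Numbl had a low of 9.78, a median of 9.89 and a high of 10.09 in controls, 9.23, 9.36 and 9.73 in knockouts 1 and 2, and 9.32, 9.43 and 9.52 in knockouts 3 and 4. Ncstn had a low of 8.45, a median of 8.65 and a high of 8.88 in controls, 7.70, 8.04 and 8.41 in knockouts 1 and 2, and 7.70, 7.94 and 8.18 in knockouts 3 and 4. For both genes all 16 knockout arrays lay below all 8 control arrays; 0.759% of the 13837 genes tested did so, a count that the choice of these genes used.

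The knockout minus control difference of Ncstn was -0.65 (log2; control mean 8.65, knockout mean 8.0), and that of Numbl was -0.50 (9.91 and 9.41). By part, Ncstn differed by -0.65 in the proximal mandible, -0.67 in the distal mandible, -0.66 in the proximal maxilla and -0.63 in the distal maxilla. The corresponding values for Numbl were -0.57, -0.52, -0.54 and -0.38. Without control 2 the values in this order of parts were -0.67, -0.68, -0.72 and -0.55 for Ncstn, and -0.66, -0.63, -0.69 and -0.34 for Numbl. On male arrays alone the differences were -0.72 for Ncstn and -0.48 for Numbl, and with the 3' excess as a covariate -0.69 and -0.50. These values come from the contrast that chose both genes and are no test of sex or RNA quality. Between the knockout sets Ncstn differed by 0.10 ± 0.06 (SE of limma on 2 against 2 means, 95% interval -0.06 to 0.26, adjusted p = 0.226). Numbl differed by -0.02 ± 0.08 (-0.21 to 0.17, adjusted p = 0.807). The choice of these genes used the arrays of both sets and favours genes low in both. Alike values in the sets are therefore no independent support. Markers of several cell types differed between knockout and control arrays as well. All 12 epithelial markers were above control in knockouts (median 0.38; summed log2 level 13.90 to 14.89 against 13.16 to 14.66), 11 of 12 endothelial markers were below (-0.31; 12.21 to 13.28 against 12.76 to 13.15), and of 7 pericyte and smooth muscle markers 6 were measured and 6 were below (-0.67; 12.21 to 13.71 against 12.38 to 13.87). In knockouts 1 and 2 the medians were 0.39 for epithelium, -0.52 for endothelium and -1.16 for pericytes and smooth muscle. In knockouts 3 and 4 they were 0.49, -0.09 and -0.10. Below control were also 9 of 10 measured neuronal markers (-0.40), 4 of 4 measured glial markers (-0.57) and 9 of 10 skeletal muscle markers (-0.40). Macrophage markers (7 of 8, 0.29) and measured erythroid markers (7 of 7, 0.23) were above. All these lists had overlapping summed levels. Neuronal medians were -0.33 in knockouts 1 and 2 and -0.50 in knockouts 3 and 4, glial ones -0.78 and -0.27, and erythroid ones 1.28 and -0.22. The part of these cells in the lower levels of Ncstn and Numbl was not tested.

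A less bright probe set of Ncstn, 1444532_at, went the other way. It passed the filter level on 3 of 24 arrays, with a mean of 5.54, and differed from control by 0.81 in knockouts 1 and 2 and 0.18 in knockouts 3 and 4. The mean of both Ncstn probe sets differed between genotypes by -0.08, so the lower level of Ncstn rests on 1418570_at. Numbl has 1 probe set here.

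**Figure D2:**
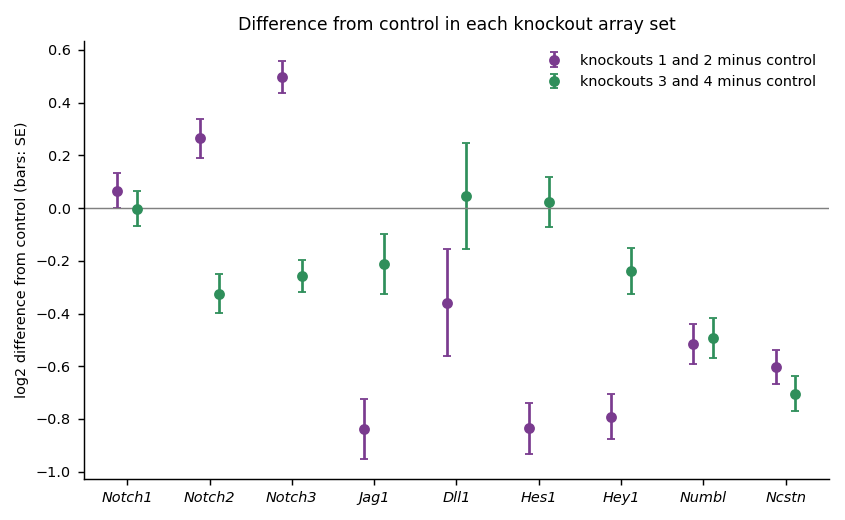
Log2 difference from control (vertical axis; bars are the SE of limma on 2 knockout and 2 control means) of the 9 members in each knockout array set. Ncstn and Numbl, chosen for a lower level in knockouts, sit near the same value in both sets, which that choice favours. For these genes the bars are no test. Notch2 and Notch3 lie on opposite sides of 0, and Hes1 differs from control in knockouts 1 and 2 alone.

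Over all parts, 0 of the other 7 members passed limma's test of knockout against control (0% of all genes did; 0 of the 7 and 965 of 13837 genes had an unadjusted p under 0.05). Jag1 had a difference of -0.52 ± 0.25 (SE; adjusted p = 0.706), Hey1 of -0.51 ± 0.22 (adjusted p = 0.706) and Hes1 of -0.41 ± 0.32 (adjusted p = 0.712). Notch2, Notch3 and Dll1 had differences of -0.03, 0.12 and -0.16. The median over the 7 was -0.16, beside -0.05 over all genes tested.

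By part, 0 of the 7 passed in any, with or without control 2, where the shares of all genes called were 0% in the proximal mandible, 0.0145% in the distal mandible, 0.00723% in the proximal maxilla and 0.00723% in the distal maxilla. In the proximal mandible the unadjusted p was under 0.05 for 2 of the 7, Jag1 and Hey1, and for 1058 of all genes; in the other 3 parts it was so for 0 of the 7, and for 1364, 879 and 676 of all genes. Jag1 in the proximal mandible was 10.49 and 10.94 in controls 1 and 2, and 9.10, 9.58, 10.20 and 9.90 in knockouts 1 to 4, so every knockout lay below both controls (13.2% of genes did so in this part). Hey1 there was 9.62 and 10.41 in controls and 8.60, 8.75, 9.41 and 9.12 in knockouts, also without overlap. The differences were -1.02 ± 0.33 (SE; adjusted p = 0.404) for Jag1 and -1.04 ± 0.36 (adjusted p = 0.437) for Hey1. Without control 2, whose ends go against the others, they were -0.79 and -0.65.

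Set against control on their own, knockouts 1 and 2 differed in 5 of the 7 members, beside 58% of all genes, a share so high that the count says little about the members. Notch3 was higher by 0.50 ± 0.06 (adjusted p = 0.00123) and Notch2 by 0.26 ± 0.07 (adjusted p = 0.0251). Hes1 fell by 0.84 ± 0.10 (adjusted p = 0.000959), Jag1 fell by 0.84 ± 0.11 (adjusted p = 0.00174) and Hey1 fell by 0.79 ± 0.09 (adjusted p = 0.00085). The Notch2 call was lost without control 2 (0.20, adjusted p = 0.103), without knockout 1 (0.28, 0.0736) and without knockout 2 (0.25, 0.0886), and with each array centred on its median (0.18, 0.0787).

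In knockouts 3 and 4, 0 of the 7 passed the test (4.64% of all genes did; 3 of the 7 and 3558 genes had an unadjusted p under 0.05). Notch2 had a difference of -0.33 ± 0.07 (adjusted p = 0.0708), Notch3 of -0.26 ± 0.06 (adjusted p = 0.075), Hey1 of -0.24 ± 0.09 (adjusted p = 0.163) and Jag1 of -0.21 ± 0.11 (adjusted p = 0.3). Hes1 had a difference of 0.02 ± 0.10 with a 95% interval of -0.21 to 0.26. The Notch3 value was -0.50 with the mean of its probe sets, which passed (adjusted p = 0.0159). Both knockout sets were set against the same 8 control arrays. Calls over all genes in this comparison were also few without knockout 3 (21) or without knockout 4 (16), beside 642 with both.

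The knockout sets differed from each other in 5 of the 9 members, beside 62.5% of all genes. Knockouts 1 and 2 were higher than knockouts 3 and 4 in Notch3 by 0.76 ± 0.06 (adjusted p = 0.000306) and in Notch2 by 0.59 ± 0.07 (adjusted p = 0.00117). They were lower in Hes1 (-0.86 ± 0.10, adjusted p = 0.000763), Jag1 (-0.63 ± 0.11, adjusted p = 0.00461) and Hey1 (-0.55 ± 0.09, adjusted p = 0.00264). Notch1 (0.07 ± 0.07), Dll1 (-0.41 ± 0.20), Numbl and Ncstn did not pass. For Numbl and Ncstn the way they were chosen favours alike values in the sets. The knockout sets also differed in the 3' excess given above and in markers of other cells. The 12 endothelial markers had a summed log2 level of 12.21 to 12.66 in knockouts 1 and 2, 12.69 to 13.28 in knockouts 3 and 4 and 12.76 to 13.15 in controls; 9 of the 12 were below control in knockouts 1 and 2, with a median difference of -0.52. Of 8 erythroid markers 7 were measured, and 7 of 7 were above control in knockouts 1 and 2 (median 1.28). The part of RNA quality and of these cells in the differences of the members was not tested.

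Probe sets of the same gene bear on these values. Beside its brightest probe set, Jag1 has 1421106_at, which differed from control by -2.01 in knockouts 1 and 2 and by 0.02 in knockouts 3 and 4, and 1421105_at, which differed by -1.45 and -0.02. The brightest, 1434070_at, differed by -0.84 and -0.21. All 3 were lower in knockouts 1 and 2, by amounts that varied more than 1 log2 unit, and the size of the Jag1 difference therefore depends on the probe set. The second Notch3 probe set, 1421964_at, differed by 0.62 and -0.74, in the same directions as the brightest.

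**Figure D3:**
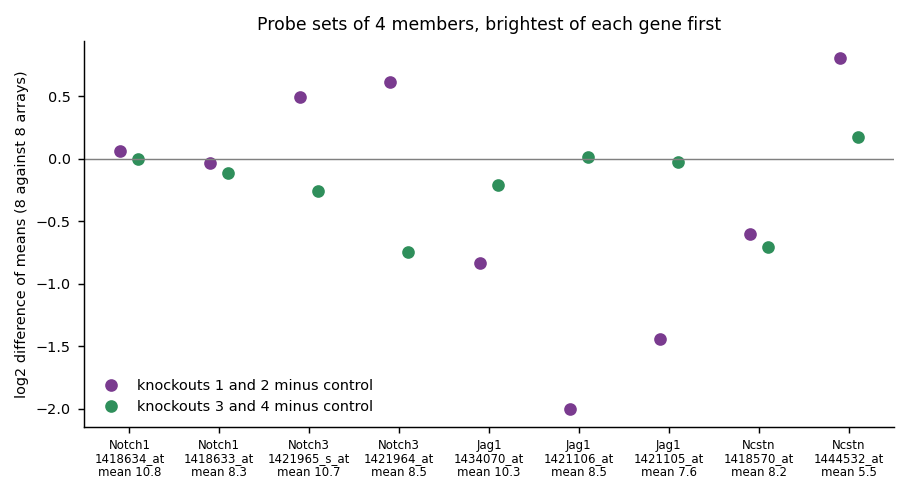
Log2 difference of means from control (vertical axis; 8 against 8 arrays, no error shown) for each probe set of Notch1, Notch3, Jag1 and Ncstn in the 2 knockout sets; the label gives each probe set's mean over 24 arrays. The Jag1 probe sets are all below 0 in knockouts 1 and 2, and the dim Ncstn probe set lies above 0.

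Between the jaws, Hey1 was the member that differed. In knockouts its low, median and high were 8.60, 9.16 and 10.12 in the mandible (n = 8) and 9.23, 10.28 and 10.78 in the maxilla (n = 8). In the proximal mandible the 4 knockouts measured 8.60, 8.75, 9.41 and 9.12, and in the proximal maxilla 9.81, 9.23, 9.92 and 10.23. In the distal mandible they measured 8.99, 9.19, 10.12 and 9.90, and in the distal maxilla 10.59, 10.32, 10.78 and 10.42. The distal values did not overlap between the jaws (4.29% of genes were lower in the mandible without overlap) and the proximal values did, and each knockout number was lower in the mandible.

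In knockouts the mandible minus maxilla difference of Hey1 was -0.90 ± 0.16 (SE of limma; adjusted p = 0.00358), and 1 of 9 members passed, beside 7.71% of all genes. Within the array sets it was -1.11 (adjusted p = 0.0121) in knockouts 1 and 2 and -0.70 (adjusted p = 0.239) in knockouts 3 and 4. The call was lost without knockout 1 (-0.75, adjusted p = 0.0534), knockout 3 (-0.96, 0.0815) or knockout 4 (-0.85, 0.102). In controls the difference of Hey1 was -0.49 in number 1 and -0.57 in number 2, a mean of -0.53 ± 0.23 (adjusted p = 0.386). The jaw difference was also compared between the genotypes, and 0 of 9 members passed, beside 0% of all genes (0 members and 570 genes at an unadjusted p under 0.05). For Hey1 that difference was -0.37 ± 0.28 (adjusted p = 0.995; 95% interval -0.97 to 0.23).

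**Figure D4:**
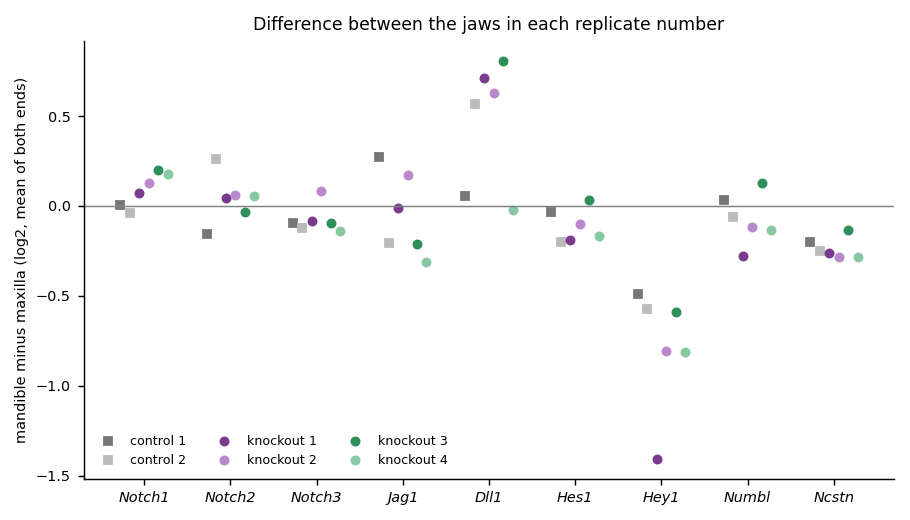
Mandible minus maxilla difference (log2, mean of both ends, vertical axis) of the 9 members in each replicate number; squares are controls and circles knockouts. All 6 values of Hey1 and all 6 of Ncstn lie below 0.

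Ncstn was also lower in the mandible in 4 of 4 knockout numbers and 2 of 2 control numbers. Control arrays ranged from 8.45 to 8.63 in the mandible and from 8.66 to 8.88 in the maxilla, with no overlap (4.08% of genes were lower without overlap). The differences were -0.23 ± 0.10 in controls (adjusted p = 0.424) and -0.24 ± 0.07 in knockouts (adjusted p = 0.0599), so neither passed. With the mean of both Ncstn probe sets the knockout difference was -0.06 and again did not pass, so its size too rests on 1418570_at. Dll1 in knockouts differed by 0.53 ± 0.20 (adjusted p = 0.126) and Notch1 by 0.14 ± 0.06 (adjusted p = 0.135). In controls 0 of 9 members passed, beside 0.687% of all genes, with 2 members (Hey1 and Ncstn) and 1577 genes at an unadjusted p under 0.05.

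The tissue of the jaws differed in other cells as well. All 10 skeletal muscle markers were higher in the mandible in both genotypes (median difference 2.18 in controls and 3.02 in knockouts; summed log2 level in knockouts 13.56 to 14.97 in mandible and 9.54 to 14.21 in maxilla). Of 12 neuronal markers 10 were measured, and 10 of 10 were lower in knockout mandible (median -2.02; 10.52 to 12.12 against 11.88 to 13.91). The part of these cells in the jaw differences of Hey1 and Ncstn was not tested.

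Between the ends, Hey1 was higher distally in 4 of 4 knockouts in both jaws. In the mandible the distal minus proximal difference was 0.39, 0.44, 0.71 and 0.78 in knockouts 1 to 4, and in the maxilla 0.78, 1.09, 0.86 and 0.18. Control 1 gave 0.60 and 1.11, and control 2 gave -0.80 and -0.34. Control 2 thus had the opposite sign in both jaws, as it did over all genes. The knockout difference over both jaws was 0.65 ± 0.16 (SE of limma; adjusted p = 0.11) and did not pass. Over both knockout jaws all 12 epithelial markers were higher distally (median 0.35; summed level 14.26 to 14.89 against 13.90 to 14.37), and all 8 macrophage markers (-0.40) and all 10 skeletal muscle markers (-0.77) were lower, both with overlapping summed levels. Their part in the Hey1 difference was not tested.

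Jag1 in the mandible was higher distally in 4 of 4 knockouts, by 1.22, 0.88, 0.50 and 0.58. Control 1 differed by 0.47 and control 2 by -0.60. In the maxilla the 4 knockouts differed by 0.39, 0.12, -0.27 and 0.16, on both sides of 0. Over both jaws the knockout difference was 0.45 ± 0.12 (adjusted p = 0.141), or 0.27 (adjusted p = 0.421) with the mean of the Jag1 probe sets, and 0 of 9 members passed, beside 0.463% of all genes (2 members and 1599 genes had an unadjusted p under 0.05).

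**Figure D5:**
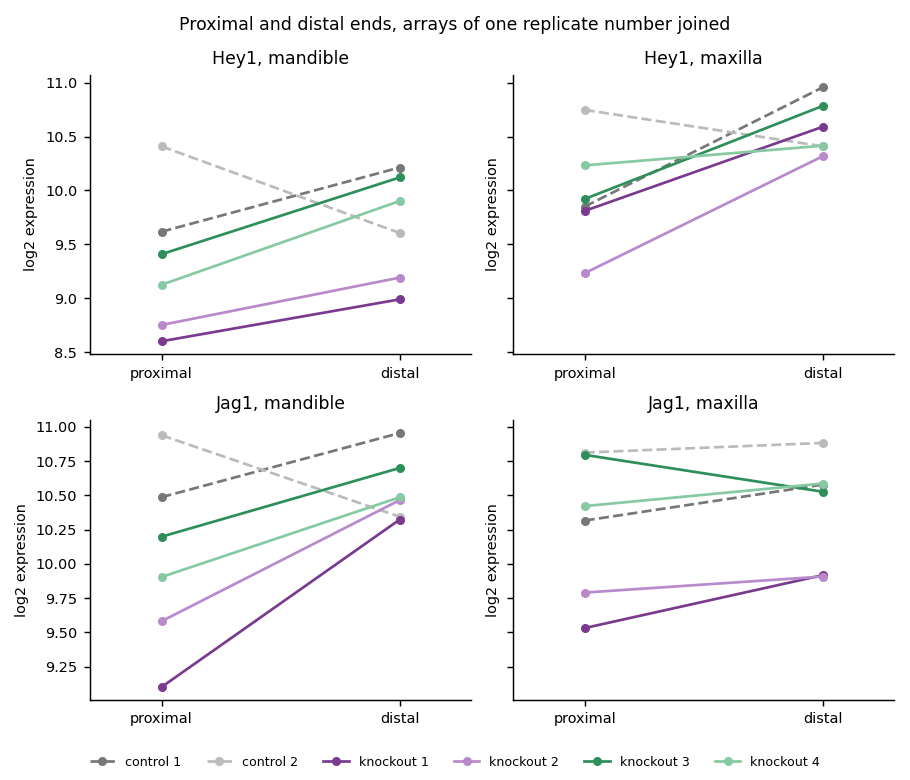
Log2 expression (vertical axis) of Hey1 and Jag1 at the proximal and distal ends of each jaw, with the arrays of one replicate number joined; dashed lines are controls. Hey1 is higher at the distal end in all 4 knockouts and in control 1, while control 2 runs the other way. In the maxilla of knockouts 1 and 2 the joined arrays differ in sex.

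Taken in the knockout mandible alone, a comparison added after the data were seen, Jag1 was higher distally by 0.80 ± 0.17 (adjusted p = 0.0343) and was 1 of 9 members called, beside 1.09% of all genes. The distal arrays (10.32 to 10.70) lay above the proximal ones (9.10 to 10.20) without overlap, as did 1.54% of genes. The call was lost without any one of the knockouts (0.71, adjusted p = 0.25, without knockout 1; 0.88, 0.0888, without 2; 0.82, 0.511, without 3; 0.78, 0.419, without 4). It was also lost in knockouts 3 and 4 alone (0.54, adjusted p = 0.879) and with the mean of the Jag1 probe sets (0.62, adjusted p = 0.123). In the knockout maxilla 0 of 9 members passed, beside 0.065% of all genes (1 member, Hey1, and 842 genes had an unadjusted p under 0.05; Hey1 differed by 0.73).

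Other cells differed between the ends of the knockout mandible too. Of 12 epithelial markers 11 were higher distally (median 0.21), and the summed log2 levels did not overlap (14.34 to 14.53 against 13.90 to 14.18). All 12 endothelial markers were higher distally (median 0.27), with summed levels that overlapped (12.65 to 13.11 against 12.27 to 12.76). All 8 macrophage markers were lower distally, without overlap (median -0.79; 10.92 to 11.23 against 11.72 to 12.03). The 4 measured maxillary markers were lower too (median -1.30; 11.66 to 12.99 against 12.98 to 13.47). The part of these cells and markers in the Jag1 difference was not tested.

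In controls 0 of 9 members passed between the ends, beside 0% of all genes (0 members and 149 genes had an unadjusted p under 0.05). Hey1 differed by 0.14 ± 0.23 as the mean of 0.85 in control 1 and -0.57 in control 2, and Jag1 by 0.05 ± 0.17 as the mean of 0.37 and -0.26. The ends were compared between genotypes directly, and 0 of 9 members passed, beside 0.00723% of all genes (0 members and 511 genes at an unadjusted p under 0.05). That difference was 0.51 ± 0.28 for Hey1 and 0.40 ± 0.20 for Jag1 (adjusted p = 0.971 for both). Without control 2 the control value that enters it is that of control 1, 0.85 for Hey1 and 0.37 for Jag1, beside 0.65 and 0.45 in knockouts.

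The rest of the pathway was followed in a list of 48 genes, of which 44 had a probe set with their symbol and 43 passed the filter; Maml2, a coactivator of the family, did not. Over all parts 0 of the 43 passed between genotypes (4 at an unadjusted p under 0.05), with 32 below 0 and a median of -0.08, beside -0.05 over all genes. The other gamma-secretase subunits are Psen2, a catalytic subunit, and Psenen, Aph1a and Aph1b, which help build the complex. Their knockout minus control differences were -0.26, -0.16, -0.07 and -0.08, and 0 of 4 passed. Rbpj, the DNA-binding partner of all the receptors, had a difference of -0.13, the target genes Hes5 and Heyl of 0.18 and -0.19, and none of these 3 passed in either knockout set. Hes5 was near background, with a mean of 5.70 and values above the filter level on 3 of 24 arrays.

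In knockouts 1 and 2, 22 of the 43 pathway genes differed from control, 10 higher and 12 lower, beside 58% of all genes (23.7% higher and 34.3% lower). Of the subunits, Psenen fell by 0.40 ± 0.07 (adjusted p = 0.00357) and Aph1a by 0.26 ± 0.06 (adjusted p = 0.0116), though Aph1a turned to 0.15 with the mean of its probe sets. Hey2, a Hey family target gene known for arteries and heart, fell by 2.08 ± 0.48 (adjusted p = 0.0119), with control arrays ranging from 5.46 to 10.51 and these knockouts from 4.59 to 8.94; the call was lost without knockout 2 (-1.79, adjusted p = 0.076). The Delta ligand Dll4, known for blood vessels, fell by 0.59 ± 0.13 (adjusted p = 0.0113). Jag2 rose by 0.40 ± 0.07 (adjusted p = 0.0045) and Notch4, an endothelial receptor, by 0.37 ± 0.06 (adjusted p = 0.003). With the mean of all probe sets of the gene Jag2 differed by 0.24 and lost its call (adjusted p = 0.0558), and Notch4 differed by 0.22 (adjusted p = 0.0455). The histone demethylase Kdm5a (-0.96), Neurl1b (-0.93) and Dlk1 (-0.87) were lower. With the mean of their probe sets Kdm5a turned to 0.083 and Dlk1 differed by -0.34 and lost its call (adjusted p = 0.0786), which Dlk1 also lost without knockout 1 (-0.77, adjusted p = 0.0813).

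In knockouts 3 and 4, 7 of the 43 differed from control, all lower, beside 4.64% of all genes (3.56% lower). Lfng, a glycosyltransferase that modifies Notch receptors, fell by 0.69 ± 0.09 (adjusted p = 0.0234), Notch4 by 0.34 ± 0.06 (adjusted p = 0.038) and Spen, a corepressor partner of Rbpj, by 0.94 ± 0.07 (adjusted p = 0.0081). Dtx3 (-0.75), Dtx1 (-0.49) and the ubiquitin ligase subunit Fbxw7 (-0.59) were also lower. Spen rose in knockouts 1 and 2, by 0.91 ± 0.07 (adjusted p = 0.00035), and the brightest Notch4 probe set also had opposite directions in the knockout sets. With the mean of all probe sets in knockouts 3 and 4, Notch4 differed by -0.03 (adjusted p = 0.834) and Dtx1 by -0.25 (adjusted p = 0.0825), so both lost their calls, and Fbxw7 differed by -0.30 (adjusted p = 0.0465). Without knockout 3 or without knockout 4 the count was 0, and without control 1 it was 3; Notch4 also lost its call without control 2 (-0.32, adjusted p = 0.0726). Calls over all genes in this comparison moved as well, from 16 to 1128 over the alternatives, beside 642 in the reported fit. None of the 4 gamma-secretase subunits passed in this set, with Psen2 at -0.38 ± 0.10 (adjusted p = 0.0964). Between the knockout sets 24 of the 43 differed, beside 62.5% of all genes, with Spen at 1.85 and Hey2 at -2.64. Numb, the paralogue of Numbl, did not pass in either set (0.21 ± 0.08 and 0.01 ± 0.08).

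Between the jaws of knockouts, 3 of the 43 passed, beside 7.71% of all genes. Dlk1, a Delta-like protein that lacks the receptor-activating domain, was higher in the mandible by 1.62 ± 0.23 (adjusted p = 0.000756) and Spen by 0.33 ± 0.10 (adjusted p = 0.0478). Neurl1b, a ubiquitin ligase for Notch ligands, was lower by 0.49 ± 0.07 (adjusted p = 0.000999). All 3 had the same sign in 4 of 4 knockouts. The Spen call was lost without knockout 2 (0.27, adjusted p = 0.138), knockout 3 (0.34, 0.23) or knockout 4 (0.32, 0.268), and without the filter on low values (0.33, 0.0572); without knockout 1 the count was 6. Calls over all genes between the knockout jaws ranged from 91 to 1548 over the alternatives, beside 1067 in the reported fit. The count of 6 alone therefore says little about the pathway. The Neurl1b call was lost in knockouts 3 and 4 alone (-0.34, adjusted p = 0.182).

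After the mean of each array set was removed, the members varied mostly apart: over 36 pairs of members and 24 arrays Pearson's r had a median of -0.03, from -0.63 for Dll1 and Hey1 to 0.51 for Notch3 and Jag1. These arrays share parts and array sets, so the values are descriptions. The genes most like Hey1 by the same measure were Eya2 (r = 0.92), Slc44a1 (0.92) and Pla2r1 (0.92). Those most like Dll1 were Emilin3 (0.94), Rgs8 (0.91) and Pnmal2 (0.91), and those most like Jag1 were Fendrr (0.89), Lgi2 (0.88) and Pcnx (0.87). For Ncstn they were Myl12b (0.88), Tubb5 (0.88) and Atmin (0.88), and for Numbl Mt3 (0.79), Iqsec3 (0.79) and Cacnb4 (0.76).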

How the data were processed

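Values were deposited by the authors as log2 expression per probe set of the Mouse430_2 array, made with RMA per the submitters' processing notes; its version, and whether 1 run covered all arrays, are not given in the sources used here. Of 45101 probe sets, 34945 carried 1 gene symbol, 932 several and 9160 none, and 64 control features were used only to describe arrays. A gene was tested when its brightest probe set lay above the 40th percentile on at least 2 of 24 arrays (13837 genes). Comparisons used limma 3.58.1 in R 4.3.3, 2-sided, with Benjamini-Hochberg adjustment over all 13837 genes and a threshold of 0.05. Knockout against control over all parts, and the array sets, were fitted on means of the 4 parts of each replicate number; parts, jaws and ends on single arrays with group means. The highest correlation between arrays was 0.995, and no duplicates were found. Precision is limited by the number of arrays.

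The fits were run on simulated data. Apart from the changes put in, those data held no differences between array sets, parts or replicate numbers. They cannot show how the fits handle such differences. Members, gene lists and tests were chosen with earlier results of these data known. The text names the 9 members; of the pathway list, the gamma-secretase subunits and paralogues, and up to 4 other genes per comparison past the threshold with the largest change; and the 3 genes most like a member. The SMAD box was chosen after the data were seen. Alternatives were other probe set, filter, scaling and spread settings, covariates, a replicate block and leaving out each replicate.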

Additional observations from a re-analysis of the deposited data

Results flagged for a closer look

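In 5 members the difference from control was not the same in the knockout sets, by limma's test of knockouts 1 and 2 against knockouts 3 and 4. The differences of the effects were 0.59 for Notch2, 0.76 for Notch3, -0.63 for Jag1, -0.86 for Hes1 and -0.55 for Hey1. Since 62.5% of all genes differed between these sets, the 5 members do not stand out by this count. For Notch2 and Notch3 the effects had opposite signs, while for Jag1 and Hey1 both were below 0, and for Hes1 the effect in knockouts 3 and 4 was 0.02. None of 36 groups of 4 knockout arrays, each a member in 1 part, held an array far from the others. Each group pools both knockout sets, which widens its range where the sets differ, so the check could flag little. Control groups, with 2 arrays each, were not checked.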

How the results depend on the processing

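The samples share only a replicate number. Deviations of the same number correlated between parts from -0.68 to 0.58 in controls (negative in each pair with the distal mandible), from -0.31 to 0.22 in knockouts 1 and 2 and from 0.07 to 0.35 in knockouts 3 and 4, whose number 3 arrays were all male and number 4 arrays all female; between control and knockout of one number they correlated from -0.56 to -0.10. The replicate block gave the following member counts: 4 over all parts, and 4 and 2 in the proximal and distal mandible and 4 and 3 in the proximal and distal maxilla, beside 0 without it. Under this block knockouts 3 and 4 have terms of their own. The count over all parts is therefore that of knockouts 1 and 2 against control. In the fits by part each such term is shared by the 4 parts, so knockouts 3 and 4 still enter. Jag1 in the proximal mandible differed by -1.33 under the block, beside -1.37 in knockouts 1 and 2. In knockouts 1 and 2 the block moved Notch2 to an adjusted p of 0.0777, Dll4 to 0.0519 and Aph1a to 0.0631. It moved Spen between the knockout jaws to 0.079. With the numbers of the control distal mandible crossed, a block chosen after seeing the data, 0 members were called between the jaws or ends of controls or in either interaction (146 genes between control jaws, 0 between control ends, 0 and 10 in the jaw and end interactions). Leaving out 1 replicate gave 0 to 1 members between the knockout jaws, 0 to 1 in the end interaction, 0 to 0 between the ends of the knockout mandible and 0 to 1 in the knockout maxilla. Knockouts 3 and 4 alone gave 0 between the jaws and 0 between the ends of the knockout mandible, where the mean of all probe sets and 8 group means also gave 0. Knockouts 3 and 4 against control gave 1 member with the mean of all probe sets (Notch3) and 1 with a trended spread (Notch2). The mean of all probe sets turned Ncstn to 0.011 in the proximal mandible, to 0.0096 in the distal mandible and to 0.10 in knockouts 1 and 2. It turned Aph1a to 0.15 in knockouts 1 and 2 against control and to 0.29 against knockouts 3 and 4, and Kdm5a to 0.083 in knockouts 1 and 2. The cause was not tested. Calls over all genes ranged as follows over the alternatives: 0 to 6393 over all parts (0 in the reported fit), 25 to 395 between control jaws (95), 91 to 1548 between knockout jaws (1067), 0 to 111 between control ends (0) and 2 to 1554 between knockout ends (64). The ranges were 2 to 157 in the knockout mandible (151), 1 to 1168 in the knockout maxilla (9), 0 to 107 and 0 to 264 in the jaw and end interactions (0 and 1), and 16 to 1128 in knockouts 3 and 4 against control (642). In the parts they reached 4987 to 6709, all under the replicate block (0 to 2). Of all results, 1020 of 1211 alternatives were labelled the same. For a tested gene this meant the same direction and side of the threshold. For a count of genes it meant 0 in both fits or a size within a fixed ratio. For Ncstn and Numbl between genotypes it meant the same sign and a shift below the spread between arrays of one set and part. Among member values with an unadjusted p of at least 0.05 the sign changed in 122 of 1197. Centring each array moved the median of all genes by under 0.1.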
